A study of Homo sapiens with 9 samples.

Results

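Glucose is broken down to pyruvate by glycolysis, branched into ribose and NADPH by the pentose phosphate pathway, and oxidised in mitochondria by the TCA cycle. The genes described here are 39 that carry these steps, chosen by pathway with earlier results of these data known. The genes comprise 18 of glucose uptake, glycolysis and lactate formation and 6 of pyruvate entry into mitochondria. A further 6 are of the pentose phosphate pathway and 9 of the TCA cycle. They are 39 of the 60683 genes in the deposited table, and all 39 were among the 16146 genes with enough counts to be tested. With RPL6 knockdown, RPIA rose and IDH1 and OGDH fell past the threshold with both hairpins. PDK1, PDK3, DLAT, HK1, HK2 and LDHB fell and TPI1 and ENO1 rose past the threshold with shRPL6-2. Several of these calls were lost in other fits, as given below.

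The cells were MHCC97H, an established hepatocellular carcinoma line of high metastatic potential, which the labels give as liver tissue. RNA was sequenced from cells carrying a control hairpin (shCont, genotype WT) and from cells carrying 1 of 2 hairpins against RPL6, a protein of the large ribosomal subunit (shRPL6-1 and shRPL6-2, genotype RPL6 knockdown), with 3 libraries in each of the 3 groups. The hairpins were delivered by lentivirus, so all 3 groups, the controls included, carry a viral hairpin construct. No oxygen level or other treatment is named in the sample labels. No source states whether the 3 libraries of 1 group are separate cultures or repeat preparations, and the p-values cover the variation among these libraries alone, which may be technical. In bulk RNA, fewer cells of a kind and less RNA per cell cannot be told apart.

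Many tumours take up glucose and release lactate even when oxygen is present. HIF-1, the transcription factor of the hypoxia response, is known to switch on glucose transporters, most glycolytic enzymes, LDHA and the pyruvate dehydrogenase kinases, in particular PDK1. These kinases phosphorylate the pyruvate dehydrogenase complex and thereby hold pyruvate back from the mitochondria.

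Library totals lay between 13638468 and 16149480 counts, and the 39 genes took 2.08% to 2.56% of them. RPL6, the targeted gene, was at 478 to 518 CPM (counts relative to the library total, scaled by TMM) in the shCont libraries, 12.9 to 15.8 in the shRPL6-1 libraries and 11.7 to 21.4 in the shRPL6-2 libraries, which goes with the labels. Libraries of the same group differed in how their counts depended on the GC content of transcripts: across genes, the Spearman correlation of GC content with the deviation of a library was −0.53 and −0.51 in shCont replicates 1 and 2 but 0.24 in shCont replicate 3, lay between −0.11 and 0.27 with shRPL6-1, and between 0.11 and 0.58 with shRPL6-2. Of the 39 genes, shCont replicate 3 was above both other control libraries in 28, among them 17 of the 18 glycolysis genes, and below both in 10. How often this library was highest or lowest of the controls over all tested genes was not counted. Member counts are therefore also given below without that library and with an offset for GC content. The liver label had little support among hepatocyte markers. Of 11, 3 passed the filter (HNF4A, KRT8 and KRT18), and ALB was at 0 counts in every library. KRT8 and KRT18 make up nearly all of the summed level of the 3 that passed. This sum was 1435 to 2563 CPM with shCont, 2269.97 to 2814 with shRPL6-1 and 2016 to 3251 with shRPL6-2. KRT18 rose past the threshold with shRPL6-2 (0.67 ± 0.22, adjusted p = 0.0417). Of 9 fibroblast and endothelial markers, 4 passed the filter (KDR at 0). The sum of these 4 was 106 to 143 CPM, 88.6 to 90.7 and 78.3 to 88.5 in the same order. CDH5 fell past the threshold with shRPL6-2. Of 8 leukocyte markers, 3 passed (CD3E and MS4A1 at 0). The sum of these 3 was 9.12 to 26.3 CPM, 9.34 to 27.2 and 12.2 to 22.7. The part of these markers in the results was not tested.

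In control cells the 39 genes covered a wide range of levels. Per kilobase of the longest annotated transcript, GAPDH, the dehydrogenase of glyceraldehyde 3-phosphate, led with 2519 ± 489 CPM (SD, n = 3), followed by ENO1 (enolase, 1140.2 ± 184) and PKM (pyruvate kinase, 775 ± 103). The lowest were the 2 kinases PDK3, at 3.16 ± 0.16, and PDK1, at 1.27 ± 0.03. The deposited FPKM, in which GAPDH had 784 and PDK3 was lowest with 0.89, order some genes differently. The gene length that count and FPKM imply was within 1% of the summed length of all distinct annotated exons in 51.5% of 10753 genes, and within 1% of the merged exons in 6.95%, so a gene with many overlapping annotated exons has a lower FPKM. LDHA, for example, has an implied length of 15766 bases against 2416 in its longest transcript, and ranked 14 by FPKM but 6 per longest transcript. At 367 ± 59.5 CPM per kilobase it then stood near LDHB (447 ± 58.3) and ALDOA (405 ± 79.3). LDHB was above LDHA in shCont replicates 1 and 2 (490 and 471, beside 357 and 313) and below it in replicate 3 (381, beside 430). These differences were not tested.

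**Figure D1:**
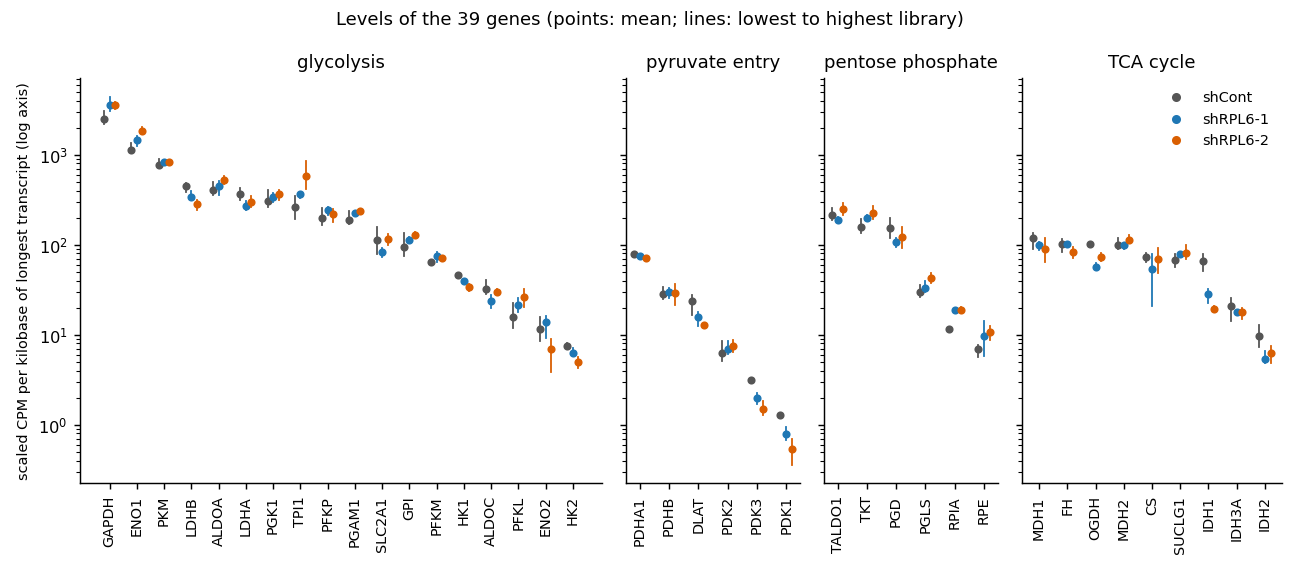
Level of each of the 39 genes in scaled CPM per kilobase of the longest annotated transcript, on a log axis, ordered within each pathway by the shCont mean. Points are group means and lines run from the lowest to the highest of 3 libraries; GAPDH is highest (2519 in shCont) and PDK1 lowest (1.27), and the 3 colours separate most for IDH1, OGDH, RPIA, PDK1 and PDK3.

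Over the whole set, 1 gene was higher and 2 were lower than in shCont with shRPL6-1, where 4.44% of all tested genes were called higher and 4.07% lower (edgeR's quasi-likelihood test, Benjamini-Hochberg adjusted p under 0.05). With shRPL6-2, 3 were higher and 8 lower, against 13.3% and 14.6% of all tested genes. The same 1 higher and 2 lower genes were called with both hairpins, where 3.68% and 3.41% of all tested genes were called. The shares of the set are near or below these backgrounds except for the 8 lower genes with shRPL6-2, and no test of the set was made. Both comparisons use the same 3 control libraries, so their values stand side by side and are not 2 independent results. The median log2 fold change of the 39 genes was −0.02 with shRPL6-1 and 0.06 with shRPL6-2, beside −0.01 and −0.03 over all tested genes. When libraries were scaled by their totals alone, the median over all tested genes was −0.10 and −0.19, and no member changed direction past the threshold.

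**Figure D2:**
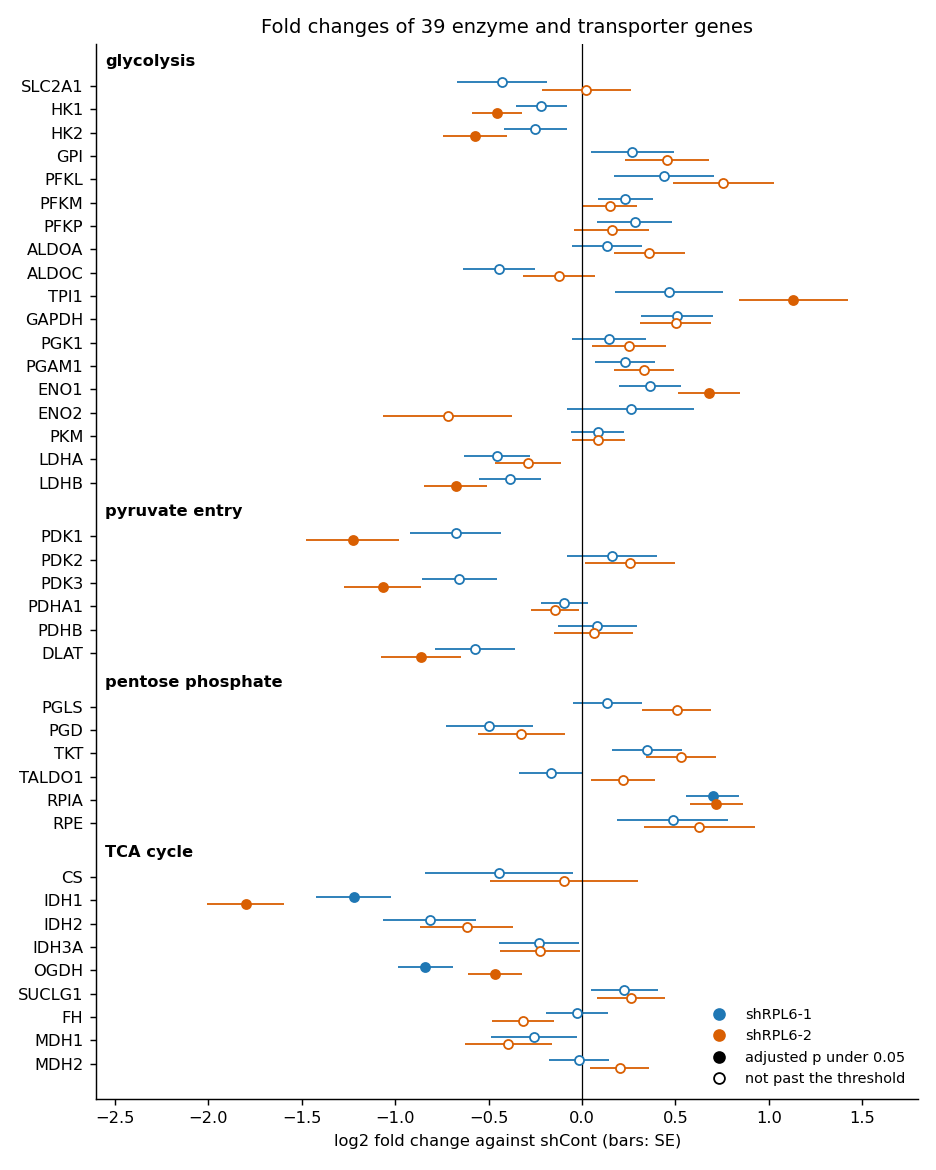
Log2 fold change of each gene against shCont, with bars of 1 SE, for shRPL6-1 (blue) and shRPL6-2 (orange). Filled points have an adjusted p under 0.05; they are RPIA, IDH1 and OGDH with shRPL6-1 and 11 genes with shRPL6-2, of which IDH1 lies farthest from 0 (−1.80).

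In glycolysis, 0 of the 18 genes passed the threshold with shRPL6-1. Unadjusted p was under 0.05 in 4, and how many of all tested genes met that cut was not counted. With shRPL6-2, 2 of the 18 rose and 3 fell, beside 13.3% and 14.6% of all tested genes. The median log2 fold change was 0.19 and 0.15.

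The hexokinases HK1 and HK2 trap glucose in the cell as glucose 6-phosphate. HK1 (ENSG00000156515, chromosome 10, 69269984 to 69401884) was at 173, 188 and 192 CPM in shCont replicates 1, 2 and 3, at 158, 164 and 154 with shRPL6-1 and at 123, 133 and 147 with shRPL6-2. All 6 knockdown libraries lay below all 3 controls. The log2 fold change was −0.22 ± 0.13 (SE, adjusted p = 0.305) with shRPL6-1 and −0.46 ± 0.13 (adjusted p = 0.0307) with shRPL6-2.

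HK2 (ENSG00000159399, chromosome 2, 74834127 to 74893359), the form induced in many tumours, was at 40.5, 42.5 and 46.4 CPM with shCont, at 34.0, 33.3 and 41.4 with shRPL6-1 and at 29.9, 24.4 and 32.8 with shRPL6-2. The shRPL6-2 libraries were below all controls, and 1 shRPL6-1 library overlapped them. Its log2 fold change was −0.25 ± 0.17 (adjusted p = 0.343) and −0.57 ± 0.17 (adjusted p = 0.0309). The HK1 and HK2 calls were each lost without shCont replicate 1 or 2, shRPL6-1 replicate 1 or shRPL6-2 replicate 1 or 2. The HK1 call was also lost without shRPL6-1 replicate 3. Adjusted p in these fits was at most 0.121 for HK1 and 0.0969 for HK2. Both calls were lost as well when only the 2 groups compared were fitted (adjusted p = 0.0702 and 0.0565). The same held with no filter on low counts (adjusted p = 0.0803 and 0.0741).

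TPI1 (ENSG00000111669, chromosome 12, 6867119 to 6870948), triose phosphate isomerase, was at 439.5, 336 and 611 CPM with shCont, at 678, 647 and 587 with shRPL6-1 and at 795, 1516 and 725 with shRPL6-2. shRPL6-2 replicate 2 was far above the other libraries, while the remaining knockdown libraries were close to or moderately above shCont replicate 3. Its log2 fold change was 0.46 ± 0.29 (adjusted p = 0.306) and 1.13 ± 0.29 (adjusted p = 0.0189), and without shRPL6-2 replicate 2 it was 0.71 (adjusted p = 0.0653). The call was also lost without shCont replicate 1 (1.11, adjusted p = 0.0686) or 2 (0.96, adjusted p = 0.0786). Pseudogenes of TPI1, led by TPI1P1, held 14.0% to 23.7% as many counts as TPI1 itself. Adding them to their parents left 3 and 11 members called with shRPL6-1 and shRPL6-2.

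ENO1 (ENSG00000074800, chromosome 1, 8861000 to 8879190), the main enolase, was at 2632, 2635 and 3448 CPM with shCont, at 3915, 4076 and 3207 with shRPL6-1 and at 4483, 5140.1 and 4349.9 with shRPL6-2. All shRPL6-2 libraries were above all others, and the shRPL6-1 libraries overlapped shCont replicate 3. The corresponding log2 fold changes were 0.36 ± 0.17 (adjusted p = 0.176) and 0.68 ± 0.17 (adjusted p = 0.0158). The shRPL6-2 call was lost without shCont replicate 1 or 2 or without shRPL6-2 replicate 2, with adjusted p of at most 0.0644.

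Lactate dehydrogenase, which interconverts pyruvate and lactate, is a tetramer of LDHA and LDHB subunits. LDHB (ENSG00000111716, chromosome 12, 21635342 to 21757857) was at 753, 725 and 586 CPM with shCont, at 488, 487 and 605 with shRPL6-1 and at 477, 370.1 and 446 with shRPL6-2. Its log2 fold change was −0.39 ± 0.17 (adjusted p = 0.156) and −0.67 ± 0.17 (adjusted p = 0.0168). Only the shRPL6-2 libraries were all below the controls. The call was lost in the same 3 leave-one-out fits as that of ENO1, with adjusted p of at most 0.0656. LDHA was at 756 to 1040.0 CPM with shCont, 585 to 737 with shRPL6-1 and 629 to 841 with shRPL6-2 and did not pass with either hairpin (−0.45 ± 0.18, adjusted p = 0.12, and −0.29 ± 0.18, adjusted p = 0.233), although the shRPL6-1 libraries were all below the controls. LDHA pseudogenes held 4.70% to 7.77% as many counts as LDHA.

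GAPDH, the most abundant of the set, was at 4236, 4152 and 5782 CPM with shCont, at 6249, 8238 and 5664 with shRPL6-1 and at 5960.3, 7264 and 6826 with shRPL6-2. The shRPL6-2 libraries were above all controls and 1 shRPL6-1 library was not. Its log2 fold change of 0.51 ± 0.19 (adjusted p = 0.111) and 0.50 ± 0.19 (adjusted p = 0.0719) missed the threshold with both hairpins. Of the remaining glycolysis genes, SLC2A1 (the glucose transporter GLUT1), GPI (glucose phosphate isomerase), the phosphofructokinase subunits PFKL, PFKM and PFKP, the aldolases ALDOA and ALDOC, PGK1 and PGAM1 (phosphoglycerate kinase and mutase), ENO2 (the neuronal enolase) and PKM did not pass, with log2 fold changes from −0.72 (ENO2, shRPL6-2) to 0.76 (PFKL, shRPL6-2) and adjusted p from 0.0568 to 0.952. PFKL was closest to the threshold: 73.6, 72.2 and 137 CPM with shCont, 153, 108 and 122 with shRPL6-1 and 163, 192 and 122 with shRPL6-2, where the high shCont replicate 3 overlaps both knockdown groups. SLC2A1 was at 288 to 584 CPM in the controls and within that range in all but 1 of the knockdown libraries.

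**Figure D3:**
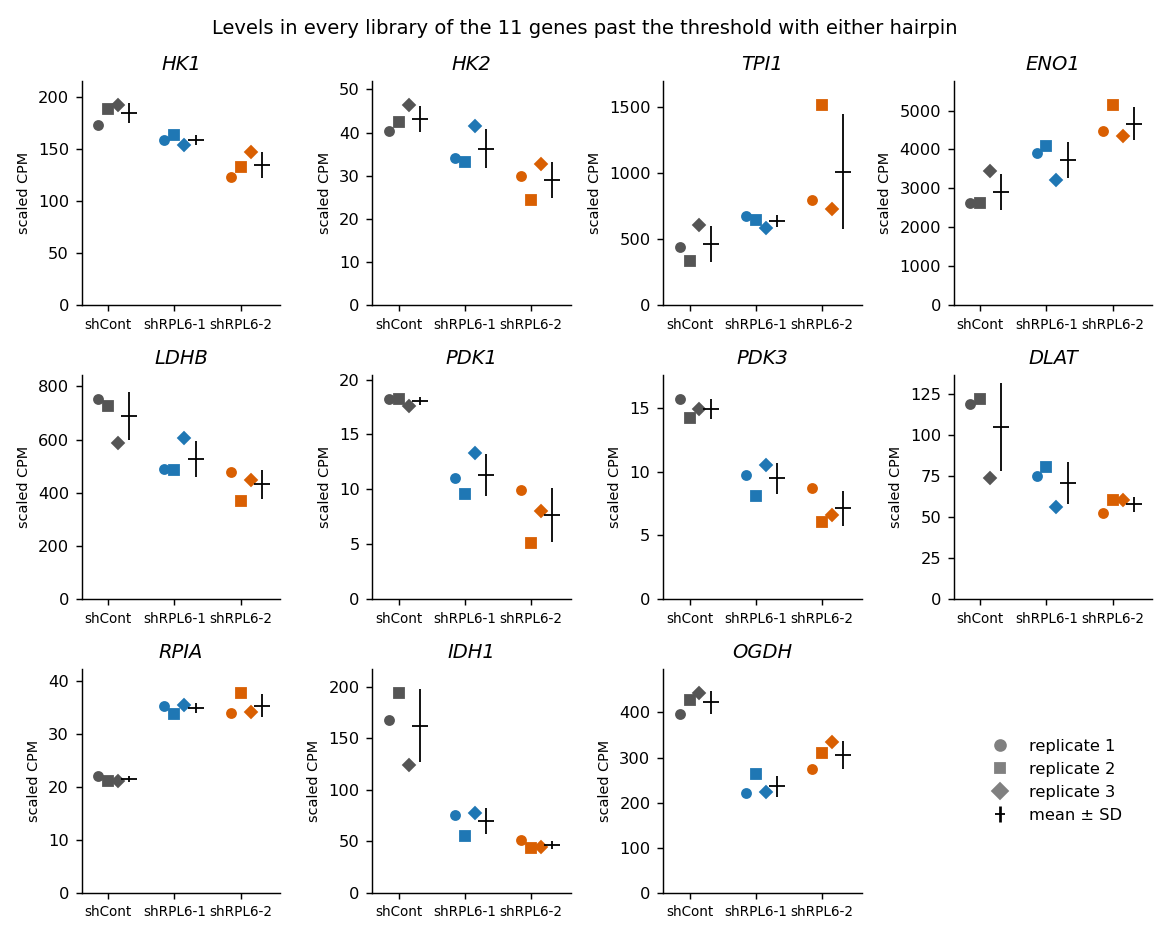
Scaled CPM in every library for the 11 genes past the threshold with either hairpin, with replicates 1, 2 and 3 as circle, square and diamond and the group mean ± SD beside them; every axis starts at 0. RPIA, IDH1, OGDH, PDK1, PDK3 and HK1 show no overlap between the 3 controls and the 6 knockdown libraries. The genes shown were picked because they passed the test, and how often other genes show no overlap was not counted. shCont replicate 3 lies nearest the knockdown libraries in TPI1, ENO1, LDHB, DLAT and IDH1.

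Pyruvate entry had the lowest medians of the 4 groups with shRPL6-2, −0.50, after −0.33 with shRPL6-1. Of its 6 genes, 0 passed with shRPL6-1. Unadjusted p was under 0.05 in 3, again with no count over all tested genes. With shRPL6-2, 3 fell, beside 14.6% of all tested genes. The 3 were 2 of the 3 kinases in the set (PDK1 and PDK3) and the E2 core subunit of pyruvate dehydrogenase. A further kinase of the family, PDK4, is outside the set and was at 0.926 FPKM with shCont, with log2 fold changes of 0.04 (adjusted p = 0.922) and 0.14 (adjusted p = 0.693).

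PDK1 (ENSG00000152256, chromosome 2, 172555373 to 172608669), the kinase best known as a HIF-1 target, was at 18.2, 18.2 and 17.6 CPM with shCont, at 11.02, 9.54 and 13.3 with shRPL6-1 and at 9.95, 5.06 and 8.02 with shRPL6-2. All 6 knockdown libraries were below the controls, which lay close together. The log2 fold change was −0.67 ± 0.24 (adjusted p = 0.0995) and −1.23 ± 0.25 (adjusted p = 0.00837), or 42.6% of the control level with shRPL6-2. PDK1 is among the transcripts lowest in GC content of the set (39.8%), and with the GC offset its shRPL6-2 value was −0.79 (adjusted p = 0.0261); with an offset for GC content and length, chosen after seeing the data, it was −0.57 (adjusted p = 0.116).

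PDK3 (ENSG00000067992, chromosome X, 24465221 to 24550466), a kinase of the same family, was at 15.7, 14.2 and 14.9 CPM with shCont, at 9.76, 8.11 and 10.5 with shRPL6-1 and at 8.70, 6.04 and 6.60 with shRPL6-2, again with no overlap. Its log2 fold change was −0.66 ± 0.20 (adjusted p = 0.0662) and −1.07 ± 0.20 (adjusted p = 0.00697). The shRPL6-2 call held in all 22 alternatives run, at −1.23 to −0.66. PDK2, another of the kinases, did not pass (0.16 ± 0.24 and 0.26 ± 0.24, adjusted p = 0.693 and 0.439).

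DLAT (ENSG00000150768, chromosome 11, 112025408 to 112064404), the acetyltransferase core of the complex, was at 119, 122 and 73.6 CPM with shCont, at 74.9, 80.5 and 56.2 with shRPL6-1 and at 52.5, 60.1 and 60.2 with shRPL6-2. shCont replicate 3 lay within the range of the shRPL6-1 libraries. Against shCont it stood at −0.57 ± 0.21 (adjusted p = 0.111) and −0.86 ± 0.22 (adjusted p = 0.017). The shRPL6-2 call was lost with the GC offset (−0.52, adjusted p = 0.0557) and when replicate 1 or 2 of either shCont or shRPL6-2 was left out (−0.91 to −0.75, adjusted p of at most 0.078).

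PDHA1, which encodes the E1 alpha subunit that the kinases phosphorylate, is the most abundant gene of this group. It was at 269.8, 273 and 287 CPM with shCont, at 269.8, 242 and 265 with shRPL6-1 and at 255, 245 and 249.9 with shRPL6-2. The knockdown libraries were all slightly lower, by −0.09 ± 0.13 (adjusted p = 0.654) and −0.14 ± 0.13 (adjusted p = 0.415) on the log2 scale. PDHB, the E1 beta subunit, was at 0.08 ± 0.21 and 0.06 ± 0.21 (adjusted p = 0.822 and 0.844).

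In the pentose phosphate pathway, 1 of 6 genes rose with each hairpin, beside 4.44% and 13.3% of all tested genes, and none fell. The median log2 fold change was 0.24 with shRPL6-1 and 0.52 with shRPL6-2. The gene that passed, RPIA (ENSG00000153574, chromosome 2, 88691673 to 88750929), encodes ribose 5-phosphate isomerase, which makes the ribose of nucleotides in the non-oxidative branch. It was at 22.1, 21.1 and 21.0 CPM with shCont, at 35.2, 33.7 and 35.5 with shRPL6-1 and at 34.0, 37.7 and 34.0 with shRPL6-2. Both knockdown groups lay well above the controls, with little spread inside any group. On the log2 scale RPIA was higher by 0.70 ± 0.14 (adjusted p = 0.0203) and 0.72 ± 0.14 (adjusted p = 0.00778). The shRPL6-2 call held in all 22 alternatives (0.55 to 0.75). The shRPL6-1 call was lost in 5 leave-one-out fits, at 0.66 to 0.71 with adjusted p of at most 0.109. These left out shCont replicate 1 or 2 or any 1 of the shRPL6-1 replicates. Over all tested genes, 51 to 124 were higher and 36 to 87 lower in these fits, beside 717 and 657 with all libraries.

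TKT, transketolase, the most abundant gene of the pathway by FPKM, was at 976, 1024 and 1414 CPM with shCont, at 1544, 1427 and 1367 with shRPL6-1 and at 1529, 1982 and 1418 with shRPL6-2. The shRPL6-2 libraries were all above the controls, the lowest of them only just, and the log2 fold change was 0.35 ± 0.19 (adjusted p = 0.243) and 0.53 ± 0.19 (adjusted p = 0.0554). PGLS and PGD, of the oxidative branch that makes NADPH, were at 0.13 and −0.50 with shRPL6-1 and at 0.51 and −0.32 with shRPL6-2. TALDO1 (transaldolase) was at −0.17 and 0.22, and RPE (ribulose phosphate epimerase) at 0.48 and 0.63, with RPE ranging from 18.2 to 45.4 CPM inside the shRPL6-1 group. None of these passed (adjusted p from 0.0554 to 0.659 over the 5 genes and both hairpins).

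In the TCA cycle group, 2 of 9 genes fell with each hairpin, beside 4.07% and 14.6% of all tested genes, and none rose. The median log2 fold change was −0.26 with shRPL6-1 and −0.32 with shRPL6-2. The 2 genes were IDH1 and OGDH with either hairpin.

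IDH1 (ENSG00000138413, chromosome 2, 208236227 to 208266074) encodes the NADP-dependent isocitrate dehydrogenase of cytosol and peroxisomes, which makes NADPH and 2-oxoglutarate. It was at 168, 194 and 124 CPM with shCont, at 75.7, 55.1 and 78.0 with shRPL6-1 and at 51.4, 43.9 and 44.6 with shRPL6-2. The 3 groups did not overlap, and shRPL6-2 was lowest. The log2 fold change was −1.22 ± 0.20 (adjusted p = 0.0108) and −1.80 ± 0.21 (adjusted p = 0.00146), or 42.9% and 28.7% of the control level. Among the 39 genes this was the largest change with either hairpin. The shRPL6-2 call held in all 22 alternatives (−1.97 to −1.46). The shRPL6-1 call was lost without shCont replicate 1 or 2 or shRPL6-1 replicate 1, with adjusted p of at most 0.0587.

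OGDH (ENSG00000105953, chromosome 7, 44606572 to 44709066), the E1 subunit of the 2-oxoglutarate dehydrogenase complex, was at 396, 427 and 444 CPM with shCont, at 222, 263 and 224 with shRPL6-1 and at 274, 309.9 and 334 with shRPL6-2. All knockdown libraries were below all controls, and the shRPL6-1 libraries were lowest. The log2 fold change was −0.84 ± 0.15 (adjusted p = 0.0127) and −0.46 ± 0.14 (adjusted p = 0.0364), and with the GC offset −1.004 and −0.743 (adjusted p = 0.00336 and 0.00608). The shRPL6-1 call was lost without shCont replicate 2 or without shRPL6-1 replicate 1 or 3 (adjusted p of at most 0.0725). The shRPL6-2 call was lost without shCont replicate 1 or 2, shRPL6-1 replicate 1 or 3 or shRPL6-2 replicate 1 or 2 (adjusted p of at most 0.14). It was also lost when only the 2 groups compared were fitted (adjusted p = 0.0693) and with no filter on low counts (adjusted p = 0.0889).

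FH, fumarase, the leading gene of the cycle by FPKM, was at 207, 197 and 151 CPM with shCont, at 179, 186 and 179.8 with shRPL6-1 and at 148, 129 and 169 with shRPL6-2. The ranges overlapped, with log2 fold changes of −0.03 ± 0.16 (adjusted p = 0.928) and −0.32 ± 0.16 (adjusted p = 0.169). IDH2, the mitochondrial NADP-dependent isocitrate dehydrogenase, was at 23.5, 19.7 and 34.3 CPM with shCont, 17.6, 12.9 and 13.4 with shRPL6-1 and 17.3, 20.01 and 13.2 with shRPL6-2. It missed the threshold with both hairpins (−0.82 ± 0.25, adjusted p = 0.0646, and −0.62 ± 0.25, adjusted p = 0.0838) and passed it with the GC offset in both (−0.95 and −0.87, adjusted p = 0.00754 and 0.0065). CS (citrate synthase), IDH3A (a subunit of the NAD-dependent isocitrate dehydrogenase), SUCLG1 (succinyl-CoA ligase) and the malate dehydrogenases MDH1 and MDH2 did not pass, with log2 fold changes from −0.44 to 0.26 and adjusted p from 0.22 to 0.955. CS ranged from 63.3 to 244 CPM inside the shRPL6-1 group, and genes that overlap it on the same and the opposite strand held 18.1% and 9.51% as many counts.

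The 4 groups of genes were also summed in each library. Summed glycolysis transcripts took 16913 ± 3046 CPM (SD, n = 3) with shCont, 20089.9 ± 1778 with shRPL6-1 and 21803 ± 1789 with shRPL6-2, and the highest control library, replicate 3 at 20429.8, lay within the shRPL6-1 range. The TCA cycle sum was 1639 ± 73.6 CPM with shCont, 1259 ± 126 and 1345 ± 136 with the hairpins. No knockdown library reached a control library in the TCA sum. Other measures also separated the controls from the knockdown libraries: mitochondrially encoded transcripts took 6.56% to 7.19% of counts with shCont, 4.74% to 5.48% with shRPL6-1 and 4.04% to 5.99% with shRPL6-2, and ribosomal protein genes 3.502% to 4.51%, 5.06% to 5.41% and 5.69% to 6.76%. Their part in the results was not tested. Sums of pyruvate entry were 561 ± 9.82, 507 ± 34.7 and 479 ± 31.9 CPM, and of the pentose phosphate pathway 1803 ± 368, 2023 ± 124 and 2343 ± 421. No test was run on the sums, which a few abundant genes set.

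Where the 39 genes hold more than 1 isozyme of a step, the share of each was followed in FPKM, with no test. These shares leave out isozymes that are not among the 39, namely PDK4, ENO3 and HKDC1, which were looked at after their values were seen. PDK1 made up 27.9%, 28.9% and 21.0% of PDK1, PDK2 and PDK3 together in the shCont libraries, 15.3%, 17.3% and 21.9% with shRPL6-1 and 17.3%, 7.93% and 13.8% with shRPL6-2. PDK2 went the other way, from a mean of 52.2% to 66.4% and 74.7%, while PDK3 went from 21.9% to 15.5% and 12.2%. Replicate 3 of shRPL6-1 overlapped shCont replicate 3 in the PDK1 and PDK2 shares. With PDK4 counted as well, the mean shares in the same order were 21.2%, 14.3% and 9.98% for PDK1, 42.6%, 52.7% and 58.0% for PDK2 and 17.9%, 12.2% and 9.39% for PDK3. IDH1 made up 73.2% ± 10.2 (SD, n = 3) of IDH1 and IDH2 with shCont, 67.8% ± 3.75 with shRPL6-1 and 55.6% ± 5.47 with shRPL6-2, and the 3 shRPL6-2 libraries were below all others.

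ALDOC, the aldolase of brain, made up 13.8% ± 0.48 of ALDOA and ALDOC with shCont, 9.86% ± 1.86 with shRPL6-1 and 10.4% ± 0.20 with shRPL6-2, with all knockdown libraries below all controls. ENO2 held 0.98% ± 0.17 of ENO1 and ENO2 with shCont and 0.95% ± 0.35 with shRPL6-1 but 0.38% ± 0.14 with shRPL6-2. The muscle enolase ENO3 was at a mean of 31.4, 29.9 and 42.7 FPKM and rose with shRPL6-2 (0.60 on the log2 scale, adjusted p = 0.0394, beside 0.003 and adjusted p = 0.993 with shRPL6-1), and with it in the sum ENO2 held 0.90%, 0.89% and 0.35%. The share of PFKL, the liver-type phosphofructokinase, was 6.17% ± 0.98, 6.99% ± 0.69 and 9.19% ± 0.80. HK2 stayed between 25.7% and 33.6% of HK1 and HK2 in every library. HKDC1, a further hexokinase, was at a mean of 48.6, 58.8 and 43.2 FPKM and did not pass (0.36 and −0.01, adjusted p = 0.129 and 0.97), and with it in the sum HK2 held 10.1% ± 0.19, 7.46% ± 0.65 and 7.61% ± 1.497. LDHB held 73.5% ± 5.68, 74.5% ± 4.22 and 68.2% ± 4.397 of LDHA and LDHB. Its size depends on the gene length used: the shCont mean was 55.0% per longest transcript and 43.9% in CPM, so these data do not settle which of the 2 LDH transcripts is more abundant.

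**Figure D4:**
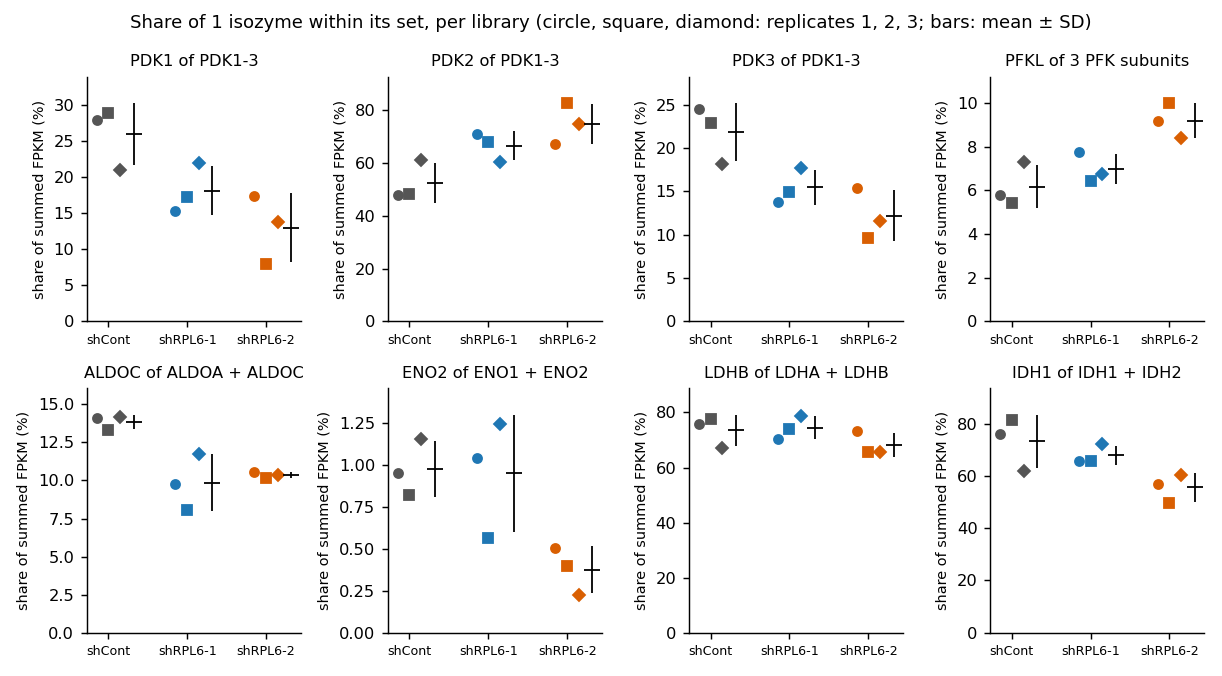
Share of 1 isozyme in the summed FPKM of those named in the panel title, which leave out PDK4 and ENO3, in percent, for each library (circle, square and diamond are replicates 1, 2 and 3) with the group mean ± SD; every axis starts at 0. From shCont to shRPL6-2 the mean share of PDK2 goes from 52.2% to 74.7% and that of IDH1 from 73.2% to 55.6%, while shCont replicate 3 lies nearest the knockdown libraries for PDK1, PDK2, PDK3 and IDH1.

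Between the hairpins, 0 of the 39 genes differed past the threshold with edgeR, beside 0.384% of all tested genes. The smallest adjusted p was 0.335 (IDH1, −0.58 ± 0.20 for shRPL6-2 minus shRPL6-1). Unadjusted p was under 0.05 in 6 genes, a cut not counted over all tested genes. DESeq2 also called 0. In 4 genes the 2 hairpins gave log2 fold changes of opposite sign, and none of the 4 passed with either. A call made with shRPL6-2 alone is thus not shown to differ between the hairpins.

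Other genes of the same pathways, from lists drawn up with earlier results of these data known, were counted in the same way. Of all tested genes, 4.44% were higher and 4.07% lower with shRPL6-1, and 13.3% and 14.6% with shRPL6-2. No test of these lists was made. Of 17 further glycolysis genes tested, 0 rose and 1 fell with shRPL6-1, and with shRPL6-2 the numbers were 2 and 4. TIGAR, a phosphatase that lowers fructose 2,6-bisphosphate, fell with both (−1.03 ± 0.24, adjusted p = 0.0308, and −1.49 ± 0.25, adjusted p = 0.00467). Its shRPL6-1 call was lost without shCont replicate 1 or 2, any 1 of the shRPL6-1 replicates or shRPL6-2 replicate 1 (adjusted p of at most 0.132). Of 13 further genes of pyruvate entry, 1 and 2 fell, among them PDHX, which anchors the E3 subunit to the DLAT core (−0.84 ± 0.23, adjusted p = 0.0485, and −0.96 ± 0.23, adjusted p = 0.0154). The PDHX call with shRPL6-1 was lost without any 1 of 8 libraries, all but shCont replicate 3 (adjusted p of at most 0.175), and that with shRPL6-2 without replicate 1 or 2 of either shCont or shRPL6-2 (at most 0.0705). Of 8 further pentose phosphate genes, 1 and 2 fell. PRPS2, which turns ribose 5-phosphate from RPIA into the nucleotide precursor PRPP, was at 58.2 ± 11.5 CPM with shCont, 21.9 ± 3.38 with shRPL6-1 and 29.5 ± 12.6 with shRPL6-2 (−1.41 ± 0.28, adjusted p = 0.0201, and −0.98 ± 0.28, adjusted p = 0.0269). Its shRPL6-1 call was lost without shCont replicate 2 or any 1 of the shRPL6-1 replicates (adjusted p of at most 0.0866). With shRPL6-2 it was lost with the GC offset (−0.70, adjusted p = 0.0553) and without shCont replicate 2 or shRPL6-2 replicate 1 or 2 (adjusted p of at most 0.0953).

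Of 23 further genes of the TCA cycle and the reactions that feed it, 2 rose and 1 fell with shRPL6-1, and with shRPL6-2 the numbers were 4 and 4. SDHB, the iron-sulfur subunit of succinate dehydrogenase, rose from 94.8 ± 16.5 CPM to 167 ± 7.28 and 183 ± 13.1 (0.82 ± 0.16, adjusted p = 0.0171, and 0.95 ± 0.16, adjusted p = 0.00467). The SDHB call with shRPL6-1 was lost without shCont replicate 1 or 2 or any 1 of the shRPL6-1 replicates (adjusted p of at most 0.0899). Of 3 gluconeogenesis genes tested, 0 passed with edgeR with either hairpin.

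Without shCont replicate 3, more of the 39 genes passed. With shRPL6-1, 8 were higher and 5 lower, against 15.6% and 13.3% of the genes then tested, and with shRPL6-2, 11 were higher and 10 lower, against 22.0% and 21.6%. In glycolysis, 6 were then higher and 1 lower with shRPL6-1, and 8 higher and 3 lower with shRPL6-2. Called with neither hairpin before, GPI (0.62 and 0.81), PFKL (0.81 and 1.13) and GAPDH (0.68 and 0.68) now rose with both. So did PGAM1 (0.41 and 0.51) and TKT (0.54 and 0.72). ENO1, LDHB, PDK3 and DLAT, called before with shRPL6-2 alone, now also passed with shRPL6-1 (0.51, −0.48, −0.65 and −0.77). None of the members called with all libraries was lost. The controls left are those with GC correlations of −0.53 and −0.51. With all libraries and the GC offset, none of GPI, PFKL, GAPDH, PGAM1 and TKT passed with either hairpin. With shRPL6-2 they were then at 0.29, 0.35, 0.19, 0.17 and 0.27 in the same order (adjusted p from 0.0854 to 0.402). ENO1, LDHB and PDK3 passed with that offset with shRPL6-2 and not with shRPL6-1, and DLAT passed with neither.

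With the GC offset, 1 gene was higher and 5 lower with shRPL6-1, against 8.24% and 7.70% of all tested genes, and 4 were higher and 10 lower with shRPL6-2, against 13.9% and 12.7%. The offset took the call of DLAT away with shRPL6-2 and added those of ALDOC and IDH2 with both hairpins, TALDO1 with shRPL6-1, and ENO2 and RPE with shRPL6-2. RPE, the member lowest in GC content (36.6%), went from 0.63 to 1.19 with shRPL6-2 (adjusted p = 0.0171), and PFKL, the highest (64.1%), from 0.76 to 0.35 (adjusted p = 0.0854). Across the 39 genes, which share libraries and pathways, the Spearman correlation of GC content with log2 fold change was 0.31 and 0.40 without the offset and 0.05 and 0.03 with it. The offset is fitted to remove the trend on GC content in each library, so this fall follows from the offset itself. The median glycolysis gene with shRPL6-2 went from 0.15 to −0.01. The part of GC content in the fold changes without the offset was not tested.

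**Figure D5:**
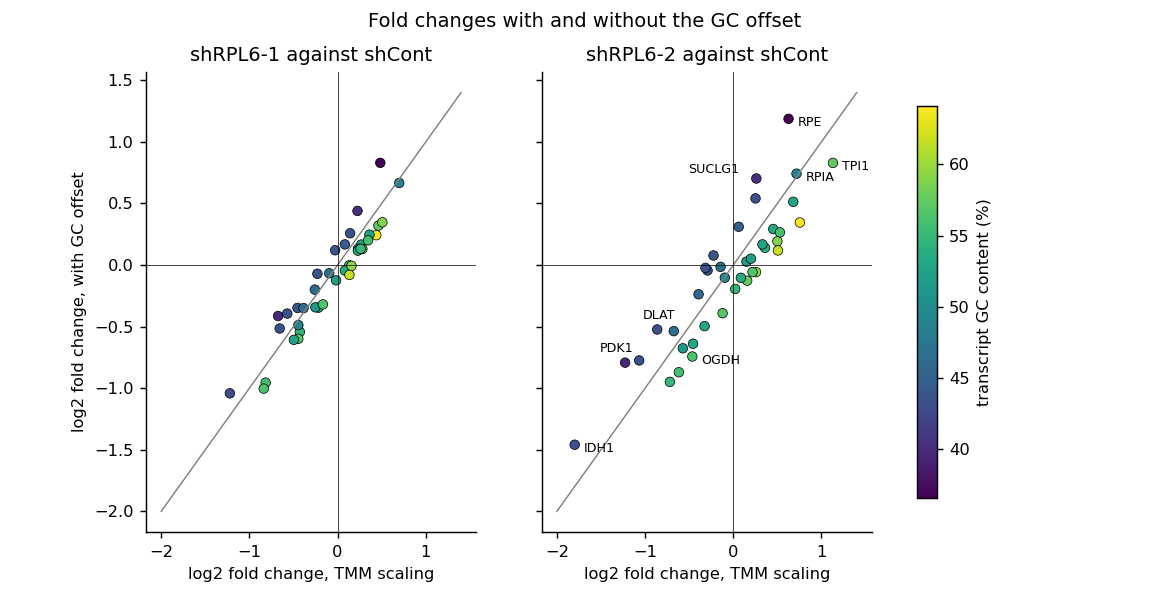
Log2 fold change of each of the 39 genes without (x axis) and with (y axis) the per-library GC offset, coloured by transcript GC content in percent, for shRPL6-1 and shRPL6-2. The grey line marks equal values; RPE (36.6% GC) lies above it at 0.63 and 1.19 with shRPL6-2, and IDH1, OGDH and RPIA keep their side of 0.

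The windows around the transcription starts of 3 members that moved are shown because HIF-1 binds a short core, ACGTG or GCGTG, and the study asked about HIF-1 signalling. The windows are RefSeq sequence of GRCh38.p14, from 250 bases before to 50 after the start nearest the deposited gene start, printed 5′ to 3′ on the strand of the gene, with capitals marking each match on either strand (CACGT and CACGC are the reverse strand).
IDH1 (chr2:208255022-208255321, minus strand): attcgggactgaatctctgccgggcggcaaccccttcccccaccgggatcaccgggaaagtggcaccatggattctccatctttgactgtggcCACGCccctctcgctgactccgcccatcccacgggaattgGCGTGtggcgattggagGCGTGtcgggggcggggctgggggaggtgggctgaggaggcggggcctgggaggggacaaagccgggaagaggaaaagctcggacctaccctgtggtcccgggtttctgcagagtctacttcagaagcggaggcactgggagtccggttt
RPIA (chr2:88691423-88691722, plus strand): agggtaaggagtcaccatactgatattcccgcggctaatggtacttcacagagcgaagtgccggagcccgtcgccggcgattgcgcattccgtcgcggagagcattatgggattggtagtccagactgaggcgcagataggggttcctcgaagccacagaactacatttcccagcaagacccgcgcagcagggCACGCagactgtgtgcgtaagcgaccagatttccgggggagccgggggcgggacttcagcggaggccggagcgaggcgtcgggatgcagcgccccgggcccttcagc
ENO1 (chr1:8878637-8878936, minus strand): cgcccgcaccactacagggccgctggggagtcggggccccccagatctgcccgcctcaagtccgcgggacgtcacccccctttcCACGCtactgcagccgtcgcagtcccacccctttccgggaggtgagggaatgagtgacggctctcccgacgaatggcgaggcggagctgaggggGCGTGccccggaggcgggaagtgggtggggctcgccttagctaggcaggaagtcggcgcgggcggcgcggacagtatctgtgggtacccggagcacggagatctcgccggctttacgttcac
IDH1, which fell, held 3 matches of GCGTG, ENO1, which rose with shRPL6-2, held 2, and RPIA, which rose, held 1, and none of the 3 held ACGTG. These 3 do not stand for all members past the threshold. The windows of PDK1, HK1 and TPI1 held 0 matches of either core, and OGDH had no window. Those of HK2, PDK3 and DLAT held ACGTG as well as GCGTG, and that of LDHB held GCGTG alone. Of the 38 members with a RefSeq window, 25 held either core and 13 held ACGTG, beside 48.4% and 21.4% of all 35116 windows of the same length. For IDH1 and ENO1 the deposited gene reaches further upstream than the window. A match is a run of letters and was not tested as a binding site.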

How the data were processed

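Stranded, paired-end poly-A RNA libraries were sequenced by the authors, and each library's group and number come from its title, to which the columns of the table were matched by their abbreviated names. The submitters' processing notes list CASAVA 1.8, HISAT2, StringTie, edgeR and build GRCh38. Annotation, counter and strand setting: not given in the sources used here. Overlapping genes are therefore uncertain. The deposited table holds whole-number counts per gene and the FPKM that the authors derived from them. FPKM was proportional to count within a gene (10768 genes compared, 4 deviating by a relative 0.0001 or more).

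The test was edgeR 4.0.16 (R 4.3.3) with filterByExpr, TMM scaling and a quasi-likelihood model of all 9 libraries with 1 term per group, Benjamini-Hochberg adjustment over 16146 genes and a threshold of 0.05. The SE of a log2 fold change was derived from its size and F statistic. Alternatives were DESeq2 1.42.0, limma 3.58.1 on log2(FPKM + 0.1), other scalings and filters, a loess GC offset (span 0.3), pseudogenes added to parents, a replicate block and leaving out each library. GC content and lengths came from GENCODE transcripts of GRCh38. Tested on simulated data of 16146 genes, planted changes of 4-fold were recovered at 89.4% for shRPL6-2 (84.8% for shRPL6-1). Those of 2-fold were recovered at 22.4% (34.3%) and those of 1.5-fold at 0% (1.49%). Changes were planted in 66 genes at 4-fold, 67 at 2-fold and 67 at 1.5-fold, with none in the other 15946. More genes were called in the data, which makes the adjusted threshold less strict, so these rates do not carry over to the data. The members, the other lists and the naming rule were chosen with earlier results of these data known. All 39 members are named; values per library are given for those past the threshold and for the most abundant of each pathway by FPKM, and for the other lists up to 3 genes called with both hairpins, of which some are not reported here.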

Additional observations from a re-analysis of the deposited data

How the results depend on the processing

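The number of calls changed with the libraries that entered. With shRPL6-1, 3 members were called with all libraries and 0 to 13 when 1 library was left out; with shRPL6-2, 11 and 4 to 21; with both in the same direction, 3 and 0 to 12. The high ends come from leaving out shCont replicate 3. Over all 16505 genes then tested, 2285 were higher and 1975 lower with both hairpins. The low ends with shRPL6-1 come from leaving out shCont replicate 2 or shRPL6-1 replicate 1 (0 each). Over all tested genes, 51 and 67 were then higher and 48 and 36 lower, beside 717 and 657 with all libraries. With shRPL6-2 the low ends come from leaving out shCont replicate 1 or 2 or shRPL6-2 replicate 2 (4 each). Over all tested genes, 728, 650 and 886 were then higher and 839, 728 and 916 lower, beside 2145 and 2354. With both they come from leaving out shCont replicate 1 or 2 or shRPL6-1 replicate 1 (0 each). Over all tested genes, 61, 44 and 64 were then higher and 49, 32 and 25 lower, beside 594 and 551. For the settings below, the share of all tested genes called under the same setting is given. With shRPL6-1, 6 members were called with DESeq2 (17.2% of all), 6 with the GC offset (15.9%), 8 with an offset for GC content and length that was chosen after seeing the data (16.0%), and 5 with the GC offset and the replicate block (7.37%). With shRPL6-2, 17 were called with the GC and length offset (24.6%). Shared by both hairpins, in 1 direction, were 5 with DESeq2 (14.1%), 5 with the GC offset (12.1%) and 8 with the GC and length offset (11.8%). The causes were not tested.

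Replicate numbers did not pair the samples: deviations of same-numbered libraries correlated at −0.56 to 0.29, and 0 of 9 libraries were closest to their own number. With the replicate block, 0 members were called with shRPL6-1 (0.198% of all tested genes), 5 with shRPL6-2 (13.0%) and 0 with both (0.142%).

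A reversal was counted where the sign changed and either value was called or both exceeded 1 SE. Under the GC and length offset TALDO1 reversed to −0.27 and IDH3A to 0.17 with shRPL6-2. Taken from CPM instead of FPKM, the change in the PFKL share with shRPL6-2 was 4.82 percentage points and that of ALDOC −1.80 with shRPL6-1 and −1.59 with shRPL6-2. Per longest transcript, also chosen after seeing the data, the changes with shRPL6-2 were −1.98 for ALDOC, −6.35 for PDK1 and −14.2 for PDK3. Scaled by library totals alone, the summed levels with shRPL6-2 differed from shCont by −140.6 CPM for pyruvate entry and −464.6 for the TCA cycle. A member that did not pass is not shown to be unchanged. In the simulated data few changes of 1.5-fold were recovered, but fewer genes were changed there than were called in the data.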
